A study of Mus musculus with 8 samples.

Results

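The Hedgehog ligands, receptors and Gli factors comprised 9 genes, chosen by name: the ligands Shh, Ihh and Dhh, the receptor Ptch1, the transducer Smo, the ligand-binding antagonist Hhip, and the transcription factors Gli1, Gli2 and Gli3. All 9 were found among 20144 named genes, through 11 of 26581 named probes on the array, and Smo and Hhip had 2 probes each. They were described on 8 mouse arrays, each the single array of its group, so the variation from animal to animal is unknown. Fetal livers gave p75NTR-positive cells for 4 arrays, at E11.5, at E13.5, at E14.5 and at E17.5 (embryonic days), and newborn livers for 1, at postnatal day 1 (P1). They were freed with collagenase and sorted by flow cytometry as cells that carried p75NTR, a nerve growth factor receptor found on hepatic stellate cells, and lacked the leukocyte marker CD45 and the red-cell marker Ter119. The sixth liver array was of stellate cells from adult liver (adult HSC), for which the sort used vitamin A. The remaining arrays held cultured fibroblasts from embryonic skin (MEF) and purified mesenchymal stem cells from adult bone marrow (MSC). Strain, genotype and any pooling of animals are not given in the sources used here.

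Hedgehog proteins are secreted ligands that bind Ptch1 on a receiving cell and so release Smo from its inhibition by Ptch1. Active Smo changes the processing of Gli2 and Gli3, of which Gli2 acts mainly as an activator and Gli3 mainly as a repressor. Gli1, Ptch1 and Hhip are themselves transcribed in response to the signal, and Ptch1 and Hhip bind the ligand and limit its reach. In liver the pathway is studied in stellate cells, the vitamin A-storing pericytes, and in their change into myofibroblasts.

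Levels are log2 processed signals minus the log2 75th percentile of the same array, so a level of one probe is compared between arrays only. A probe counts as above background when the scanner software marked at least 1 in 2 of its spots so, and a level below that is given as measured and any fold that uses it is a bound, written "at least". Between 58.8% and 64.5% of the 43020 non-control spots of an array were well above background, 0 were saturated, and the 75th percentile signal lay between 243 and 414. Repeat spots of a probe on one array had a median coefficient of variation of 4.0% to 5.76%, which covers technical error only. Slide 1 carried the 4 fetal arrays, and slide 2 those of MEF, MSC, adult HSC and P1. All 11 stellate cell markers were above background on each of the 6 liver-derived arrays, against 8 on the MEF array and 5 on the MSC array. All 11 hepatocyte markers were also above background on each of the 5 p75NTR arrays. In sorted bulk samples fewer cells of a type and less RNA per cell cannot be told apart.

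**Figure D1:**
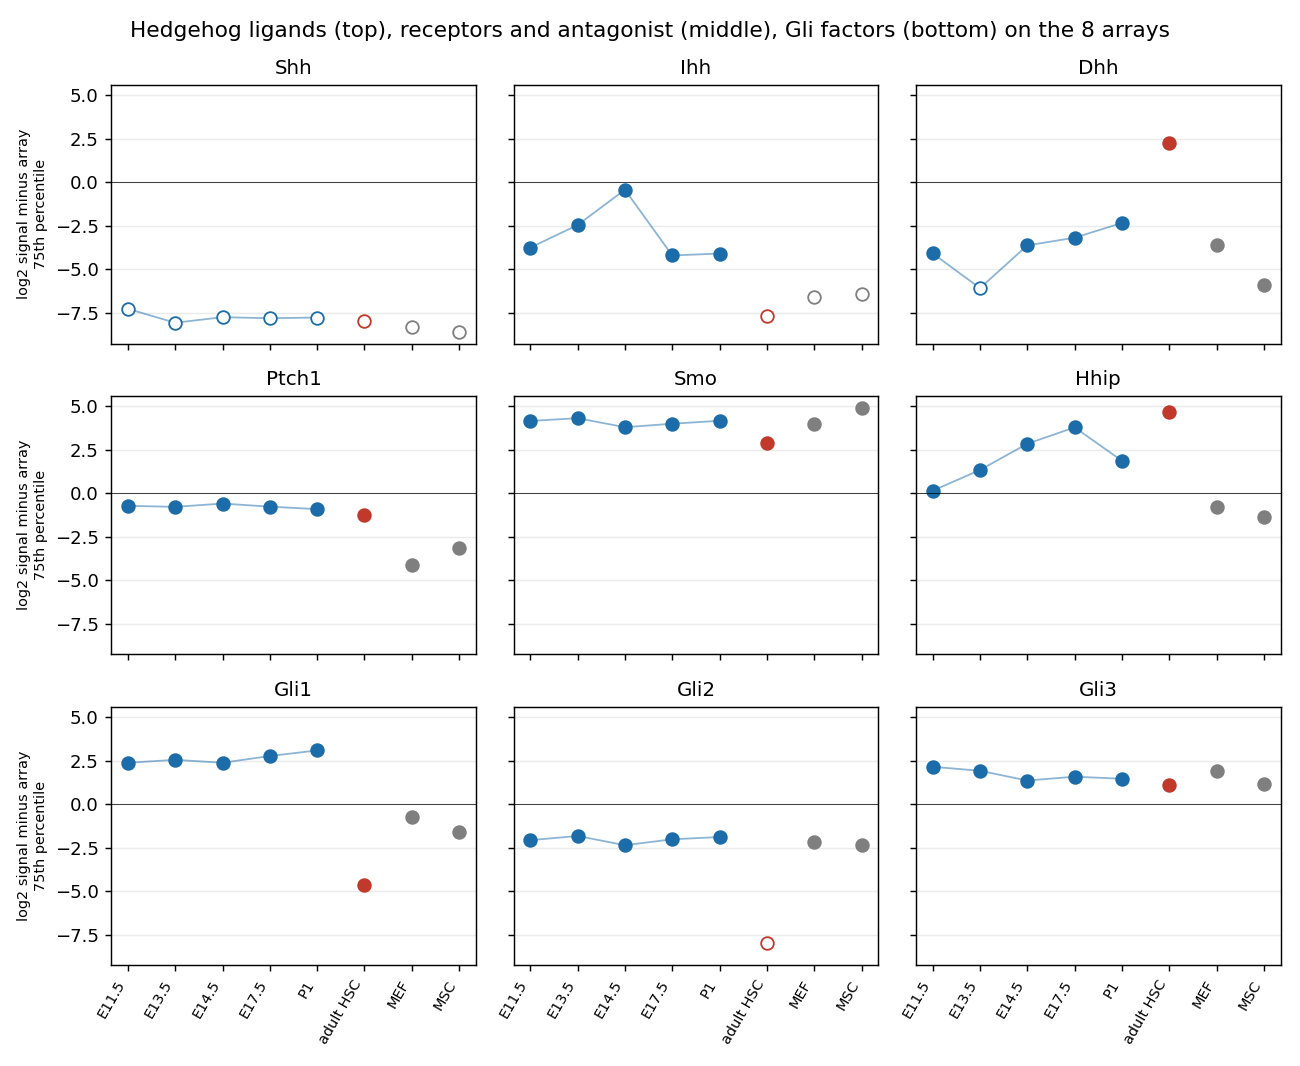
Level of each Hedgehog gene (vertical axis, log2 signal minus the array's 75th percentile) on the 8 arrays (horizontal axis), with p75NTR-positive stages in blue, adult HSC in red, MEF and MSC in grey, and open circles below background. Ptch1 lies near -0.8 on all stage arrays, Ihh peaks at E14.5, and adult HSC stand apart from all 5 stages in Dhh, Gli1 and Gli2.

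Promoter sequence was available for 7 of the 9 genes (RefSeq, GRCm38.p6), from 250 bases before to 50 after the start. Ptch1 and Hhip are shown because both are textbook Gli targets, and Dhh because it was the ligand that differed most between adult HSC and the stages. Capitals mark the core CCACCC of the GLI site on either strand (GGGTGG on the other). The Ptch1 promoter is at chr13:63565686-63565985, the Hhip promoter at chr8:80057959-80058258 and the Dhh promoter at chr15:98898491-98898790, each on the minus strand.
Ptch1: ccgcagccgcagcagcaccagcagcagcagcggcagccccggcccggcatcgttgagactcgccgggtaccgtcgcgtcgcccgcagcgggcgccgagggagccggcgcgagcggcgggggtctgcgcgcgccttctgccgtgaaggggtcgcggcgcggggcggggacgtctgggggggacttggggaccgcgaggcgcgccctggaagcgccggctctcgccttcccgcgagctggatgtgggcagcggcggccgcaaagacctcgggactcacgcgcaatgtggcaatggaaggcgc
Hhip: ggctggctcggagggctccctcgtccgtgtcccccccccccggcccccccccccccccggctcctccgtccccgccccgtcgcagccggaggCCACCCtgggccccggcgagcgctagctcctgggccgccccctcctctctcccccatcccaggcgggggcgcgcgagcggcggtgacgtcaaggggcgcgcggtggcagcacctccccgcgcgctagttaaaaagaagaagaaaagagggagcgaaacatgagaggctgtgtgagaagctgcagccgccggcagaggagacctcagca
Dhh: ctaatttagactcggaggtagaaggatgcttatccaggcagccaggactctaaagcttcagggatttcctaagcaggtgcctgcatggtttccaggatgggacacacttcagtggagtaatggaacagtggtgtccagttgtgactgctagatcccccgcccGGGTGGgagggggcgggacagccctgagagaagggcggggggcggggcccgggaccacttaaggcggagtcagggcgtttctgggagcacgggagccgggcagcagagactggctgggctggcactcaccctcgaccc
The core was found at 0 places in the Ptch1 window, 1 in the Hhip window and 1 in the Dhh window, and 31.5% of 32851 promoters of the same length hold it. The full 9-letter consensus GACCACCCA, which contains the core, was in 0 of these 7 promoters and in 0.253% of all. A match is a description of letters only, and the lack of one says only that these letters are not in the window.

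Shh, the most widely studied ligand, was not above background on any of the 8 arrays. Its probe, with 10 spots, gave levels from -8.07 to -7.27 on the 5 stage arrays, -7.95 in adult HSC, and -8.34 in MEF and -8.59 in MSC. At P1, 2 of 10 spots were marked well above background and the brightest had a signal of 81.9, while 0 of 10 spots were so marked on each other array. These counts cover all 10 spots, whereas the levels leave out spots flagged as outliers. Because it passed the filter on no array, Shh was not tested, and the counts below cover the other 8 genes.

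Ihh, the ligand of growth cartilage and gut in mouse, was above background on the 5 stage arrays and on no other. Its level was -3.75 at E11.5, -2.45 at E13.5, -0.42 at E14.5, -4.20 at E17.5 and -4.09 at P1, then -7.69 in adult HSC, and -6.57 in MEF and -6.42 in MSC. The E14.5 array stood above the other stages, and all 5 stages lay above the other arrays. Against the mean of MEF and MSC, Ihh was at least 10.6-fold higher over the 5 p75NTR arrays, with a limma adjusted p of 0.122 and a log2 difference of 3.52 ± 1.04 (SE). Over all 6 liver-derived arrays the log2 difference was 2.74 ± 1.58 (SE), with a limma adjusted p of 0.374. Neither passed the threshold of 0.05. Slide 1 held no MEF or MSC array, so slide as a block and slide 2 alone both compare only P1 and adult HSC with them. In these fits the difference was 0.61 (limma adjusted p = 0.832 and 0.863), with P1 at -4.09 and adult HSC, below background, at -7.69.

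Hepatocyte transcripts shared the E14.5 peak of Ihh, though not its order on every other array. All 11 hepatocyte markers had their highest level on the E14.5 array, as had 7.73% of the 16408 genes tested. So had 3 of 6 gut epithelial markers and 2 of 7 mesothelial markers listed. Among the 11 hepatocyte markers, Dlk1 spanned only 0.34 log2 units over the stages and was also high in MEF (6.93) and MSC (5.65). The correlation of the hepatocyte markers with Ihh across the 8 arrays ranged from r = 0.53 for Trf to 0.93 for Afp, with a median of 0.86. Ihh was higher at E11.5 than at E17.5 and P1, whereas Alb was lower there. Albumin (Alb) was at -2.03 at E11.5, 5.55 at E13.5, 7.19 at E14.5, 4.18 at E17.5 and 2.77 at P1, then -0.95 in adult HSC, and -7.50 in MEF and -7.70 in MSC. Hnf4a, a hepatocyte transcription factor, was at -4.31 at E11.5, 3.05 at E14.5 and -1.46 at E17.5. Of the 11 markers, 9 were above background in adult HSC, and 4 in MEF and 4 in MSC. The genes with the pattern most like Ihh among 14050 were Gpd1 (r = 0.979), Hkdc1 (r = 0.975) and Aldh1b1 (r = 0.97), over 8 arrays that share their stages and slides. The part of hepatocyte or other transcripts in the Ihh levels was not tested.

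**Figure D2:**
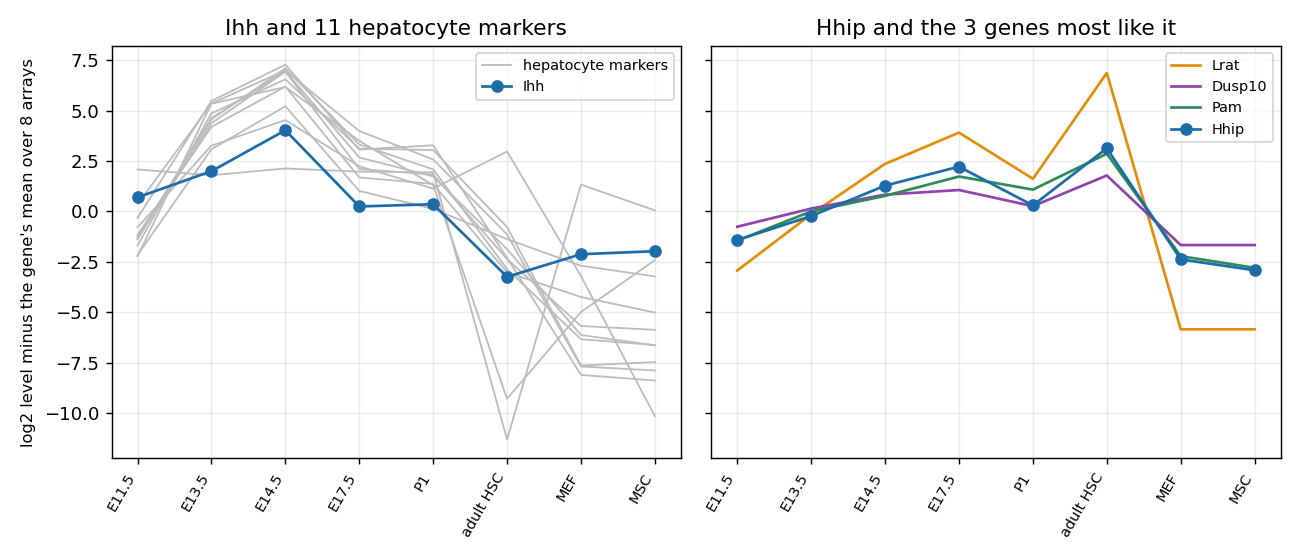
Log2 level minus the gene's own mean over 8 arrays (vertical axis) on each array (horizontal axis), for Ihh (blue) with 11 hepatocyte markers (grey) on the left, and for Hhip (blue) with Lrat, Dusp10 and Pam on the right. Ihh and all 11 markers are highest at E14.5, and Hhip and Lrat are highest in adult HSC.

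Dhh, the ligand made by Schwann cells and Sertoli cells, was highest in adult HSC. Its level was -4.08 at E11.5, -6.08 at E13.5, -3.62 at E14.5, -3.18 at E17.5 and -2.33 at P1, then 2.27 in adult HSC, and -3.61 in MEF and -5.89 in MSC. The E13.5 value was below background, and the 5 stages overlapped with MEF and MSC. The scanner signal was 1470 in adult HSC, against 68.7 at P1. Between the 6 liver-derived and other arrays the log2 difference was 1.91 ± 1.90 (SE; limma adjusted p = 0.592). With slide as a block, which sets only P1 and adult HSC against MEF and MSC, it was 4.72 (limma adjusted p = 0.176). Among genes of similar pattern, Ginm1 (r = 0.98), Wnt4, a secreted Wnt ligand (r = 0.975), and Rgs9 (r = 0.975) came first. The Schwann cell factor Sox10 was at -0.07 at E11.5, -6.19 at E13.5, -3.90 at E14.5, -2.77 at E17.5 and -1.53 at P1, then -5.43 in adult HSC, and -0.35 in MEF and -6.23 in MSC. From E13.5 to P1 the levels of both genes were successively higher, while in adult HSC that of Dhh was higher and that of Sox10 lower than at P1. Sox10 is 1 of 9 Schwann and neural crest markers listed, and the 7 with a slope had a median of 0.08 per stage. Another, Mbp, did not follow this order, with -1.3 at E13.5, -3.02 at E14.5, -1.66 at E17.5 and -1.34 at P1. Of the 9 markers, 3 were above background in adult HSC, against 7 at P1. The part of Schwann cells in the Dhh levels was not tested.

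Ptch1, the receptor that binds the ligands and holds Smo inactive, was higher in the liver-derived cells than in MEF and MSC. Its level was -0.72 at E11.5, -0.78 at E13.5, -0.59 at E14.5, -0.77 at E17.5 and -0.91 at P1, then -1.25 in adult HSC, and -4.10 in MEF and -3.15 in MSC. All 6 liver-derived arrays lay above both others, and the 5 stages spanned only 0.31 log2 units. The difference was 2.79 ± 0.32 log2 units (SE), or 6.92-fold, with a limma adjusted p of 0.00925. With slide as a block it was 2.55 ± 0.37 (SE) with a limma adjusted p of 0.0554, and within slide 2 alone 2.55 ± 0.55 (SE) with a limma adjusted p of 0.542. With the normexp background correction it was 1.87 (limma adjusted p = 0.0935). The genes most like Ptch1 in pattern were Chil6 (r = 0.987), Gata4, a transcription factor of liver mesenchyme (r = 0.985), and Prkd3 (r = 0.984).

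Smo, the membrane protein that carries the signal inward, spanned 0.52 log2 units over the stages. The probe taken was at 4.16 at E11.5, 4.32 at E13.5, 3.80 at E14.5, 4.0 at E17.5 and 4.17 at P1, then 2.90 in adult HSC, and 3.96 in MEF and 4.93 in MSC. The liver-derived arrays overlapped with MEF, and the log2 difference was -0.56 ± 0.44 (SE) with a limma adjusted p of 0.501. The other Smo probe ranged from 0.03 to 1.60 over the stages and was 0.18 in adult HSC, and -0.11 in MEF and 0.92 in MSC. Its difference between liver-derived and other arrays was 0.23, of the opposite sign to that of the probe taken.

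Hhip, which binds ligands at the cell surface and keeps them from Ptch1, was higher on every liver-derived array than on either other array. It stood at 0.15 at E11.5, 1.34 at E13.5, 2.85 at E14.5, 3.79 at E17.5 and 1.87 at P1, then 4.70 in adult HSC, and -0.81 in MEF and -1.35 in MSC. Levels were successively higher over the 4 fetal arrays, lower at P1 and highest in adult HSC. The liver-derived cells were 11.6-fold higher than MEF and MSC, a log2 difference of 3.53 ± 1.11 (SE) that missed the threshold (limma adjusted p = 0.163). The second Hhip probe gave a difference of 2.84 and the same order of the stages, with -4.89 at E11.5 and -1.31 at E17.5. Over the 4 fetal arrays alone the slope was 1.24 ± 0.10 per stage (SE), with a limma adjusted p of 0.0865.

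The gene most like Hhip in pattern was Lrat, the retinol esterifying enzyme that marks vitamin A-storing stellate cells (r = 0.991, with the same rank order on the 8 arrays). Lrat was at -4.68 at E11.5, -1.89 at E13.5, 0.61 at E14.5, 2.16 at E17.5 and -0.13 at P1, then 5.12 in adult HSC, and -7.60 in MEF and -7.60 in MSC. Dusp10, a phosphatase of stress kinases (r = 0.99), and Pam, a peptide-amidating enzyme (r = 0.982), followed. Correlation of the 11 stellate cell markers with Hhip had a median of 0.84 and was highest for Lrat, across the same 8 arrays. The adult HSC were sorted by vitamin A, so Lrat is not independent of that sort.

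Gli1, the activator whose own transcription follows the signal, spanned 0.71 log2 units over the p75NTR arrays and stood far lower in adult HSC. It was at 2.38 at E11.5, 2.55 at E13.5, 2.38 at E14.5, 2.77 at E17.5 and 3.09 at P1, then -4.65 in adult HSC, and -0.73 in MEF and -1.62 in MSC. All 5 stages lay above both other cell types, and adult HSC lay below them. With adult HSC included, the comparison of the 6 liver-derived arrays gave 2.59 ± 1.97 log2 units (SE) with a limma adjusted p of 0.484. The 5 p75NTR arrays alone were 14-fold higher than MEF and MSC, or 3.81 ± 0.34 log2 units (SE), with a limma adjusted p of 0.00504. On slide 2, where the liver-derived arrays are P1 and adult HSC, the difference was 0.39 ± 2.90 (SE). Closest in pattern were Gfra2, a receptor for the growth factor neurturin (r = 0.992), the cytokine gene Ltb (r = 0.989) and Slitrk4 (r = 0.987).

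Gli2, the main activator, spanned 0.53 log2 units over the stages and was below background in adult HSC. Its level was -2.07 at E11.5, -1.83 at E13.5, -2.36 at E14.5, -2.02 at E17.5 and -1.89 at P1, then -8.01 in adult HSC, and -2.16 in MEF and -2.35 in MSC. The stages overlapped with MEF and MSC. The log2 difference between liver-derived and other arrays was -0.78 ± 1.62 (SE; limma adjusted p = 0.812). It was 0.28 with normexp and 0.22 without adult HSC, both of the opposite sign. With slide as a block, where only P1 and adult HSC are compared with MEF and MSC, it was -2.70. Dlk1, a membrane protein of fetal and mesenchymal cells, had the pattern most like it (r = 0.991), with a rank correlation of 0.262. For both genes the adult HSC array lay far below the rest.

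Gli3, mainly a repressor, was the most even of the Gli factors across the 6 liver-derived arrays with adult HSC included. Over the 5 stages alone it spanned 0.78 log2 units, more than Gli1 (0.71) or Gli2 (0.53). It was at 2.15 at E11.5, 1.92 at E13.5, 1.36 at E14.5, 1.58 at E17.5 and 1.46 at P1, then 1.12 in adult HSC, and 1.93 in MEF and 1.18 in MSC. The liver-derived and other arrays overlapped, with a log2 difference of 0.04 ± 0.36 (SE; limma adjusted p = 0.962), and it was -0.33 with median normalization. Pip5k1a had the pattern most like it (r = 0.956).

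Over the 8 genes tested, 1 (Ptch1) was higher at a limma adjusted p under 0.05 in the 6 liver-derived arrays, and 0 were lower. Of all genes tested, 0.847% were higher and 0.731% lower by this rule. With the 5 p75NTR arrays alone, 2 of 8 (Ptch1 and Gli1) were higher and 0 lower, beside 1.99% and 1.23% of all genes. In 2 of 8 genes (Ptch1 and Hhip) every liver-derived array lay above both others, and in 0 of 8 below, beside 12.8% and 10.4% of all genes. The median difference over the 8 genes was 2.25, against 0.02 over all genes, though only Ptch1 of the 8 passed the test. Since neither side holds replicates, the spread these fits use is that among different stages and cell types. The sides also differ in tissue, in the culture of MEF and partly in age, and these cannot be told apart.

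**Figure D3:**
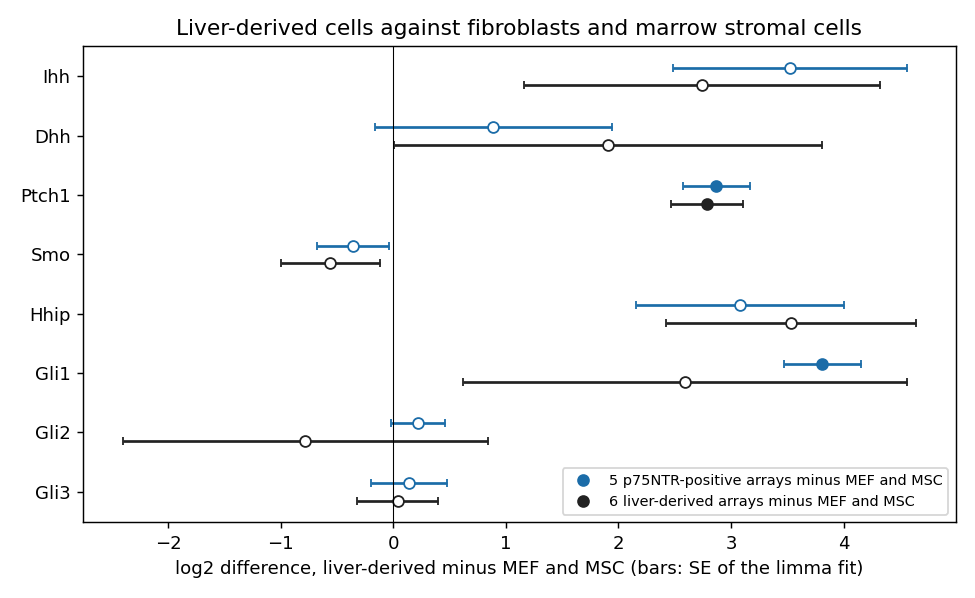
Log2 difference (horizontal axis) for 8 Hedgehog genes, liver-derived minus MEF and MSC, with the 5 p75NTR arrays (blue) above all 6 liver-derived arrays (black). Bars are the SE of the limma fit and filled circles have an adjusted p under 0.05: Ptch1 in both fits and Gli1 without adult HSC.

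Over the order of the 5 stages, 0 of the 8 genes had a slope with a limma adjusted p under 0.05 and 0 an unadjusted p under 0.05, beside adjusted calls for 0% of the 15492 genes tested, of which 4349 had an unadjusted p under 0.05 and 1140 passed with a mean-variance trend and robust prior, with 0 of the 8 among them. The largest slopes were 0.64 ± 0.29 log2 units per stage (SE) for Dhh (limma adjusted p = 0.229) and 0.59 ± 0.31 (SE) for Hhip (limma adjusted p = 0.286). The Dhh slope includes the E13.5 value below background, and with normexp it was -0.08 (limma adjusted p = 0.916). Gli1 had 0.16 ± 0.07 per stage (SE; limma adjusted p = 0.219).

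Newborn and E11.5 cells were within 2-fold of each other in 6 of 8 genes. Between P1 and E11.5, with 1 array each and no test, Dhh was 3.38-fold higher and Hhip 3.29-fold higher at P1. The Dhh difference was 1.75 log2 units, and 0.50 with the normexp correction. These were the 2 genes of 8 at least 2-fold apart, beside 31.1% of all genes. At least 4-fold higher or lower were 0 of 8, beside 7.37% higher and 3.31% lower of all genes. The P1 array was on slide 2 and the E11.5 array on slide 1, and slide and age cannot be told apart here.

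Adult HSC and newborn p75NTR cells differed in the ligand Dhh, the antagonist Hhip and the factors Gli1 and Gli2. Dhh was 24.2-fold higher and Hhip 7.1-fold higher in adult HSC than at P1. Gli1 was 212-fold lower, with a signal of 12.2 in adult HSC against 2930 at P1, and Gli2 was at least 16.6-fold lower. Ihh was at least 3.62-fold lower, Smo 2.4-fold lower, and Ptch1 and Gli3 each 1.27-fold lower in adult HSC. Median normalization turned the direction of Ptch1 and Gli3, with a log2 difference of 0.44 for each in place of -0.35, while the median of all genes was 0.73 in place of -0.06. The second Hhip probe gave a log2 difference of 3.11 and the second Smo probe one of -1.42. With the normexp correction the log2 difference was -4.97 for Gli1, -1.23 for Gli2 and -0.17 for Ihh, against -7.73, -4.05 and -1.85.

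**Figure D4:**
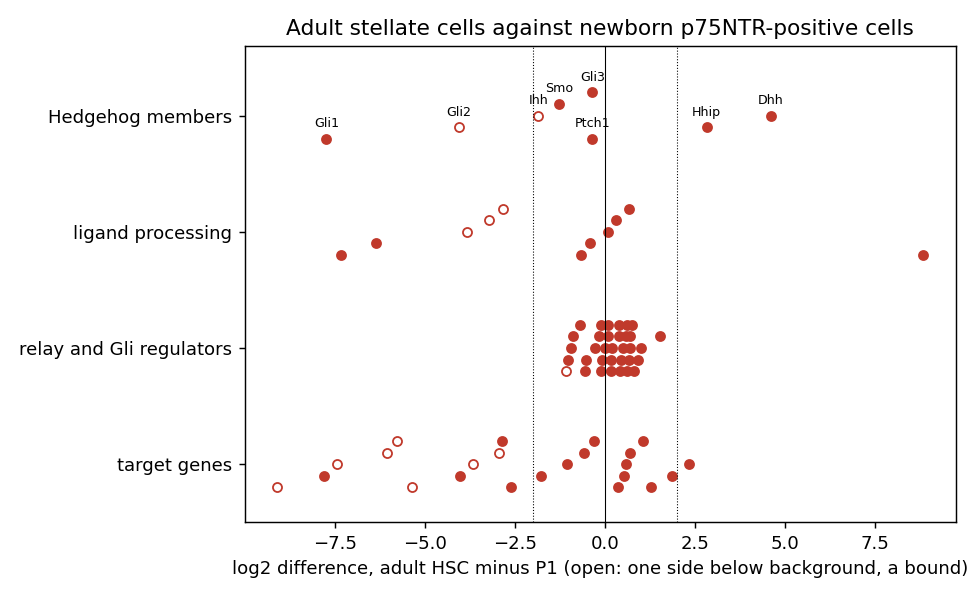
Log2 difference, adult HSC minus P1 (horizontal axis), for 8 Hedgehog genes and 3 lists of pathway genes (rows), 1 point per gene and open where one side is below background. Dotted lines mark 4-fold, which Dhh and Hhip pass on the high side and Gli1 and Gli2 on the low side, while relay genes all lie between the lines.

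By count, 2 of 8 genes were at least 4-fold higher and 2 of 8 at least 4-fold lower in adult HSC, beside 4.6% and 12.6% of all genes. At least 2-fold apart were 6 of 8, beside 35.4% of all genes. Set against all 5 stages, which was a measure added after the values were seen, adult HSC were at least 4-fold above the highest stage in 1 of 8 genes (Dhh, 24.2-fold) and at least 4-fold below the lowest stage in 2 of 8. These were Gli1, 130-fold below, and Gli2, at least 12.0-fold below. Of all genes, 2.43% lay so far above and 5.6% so far below. The arrays of this pair share a slide but differ in age and in sort, p75NTR against vitamin A, and these cannot be told apart.

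Markers of other cells differed in the same pair. All 5 portal fibroblast markers were at least 4-fold lower in adult HSC, among them Thy1 with a log2 difference of -9.76, and their median difference was -7.90. Of the mesothelial markers, 1 of 7 was above background in adult HSC, against 5 at P1, and Wt1 was at -3.79 in adult HSC, against 2.39 at P1. Hepatocyte markers were at least 4-fold lower in 9 of 11, with a median of -4.16. Pancreatic acinar markers were above background for 3 of 7 in adult HSC, against 6 of 7 at P1, where Amy2a5 was at 4.32 against -8.24 in adult HSC. The stellate cell markers ran the other way, with 7 of 11 at least 4-fold higher in adult HSC and a median of 2.41. Of 10 endothelial markers, 3 were at least 4-fold higher in adult HSC (Plvap with a log2 difference of 4.05, Clec4g with 2.79 and Stab2 with 2.29) and 1 was at least 4-fold lower, with a median of -0.35. The Kupffer cell marker Clec4f was at least 6.78-fold higher, as 1 of 5 leukocyte and Kupffer cell markers compared. The part of these cells in the Gli1, Gli2, Dhh and Hhip differences was not tested.

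Genes that lipidate, carry and release the ligands made a list of 12. Of these 0 passed the limma test between the 6 liver-derived and other arrays and 1 had an unadjusted p under 0.05, with a median difference of 0.71 against 0.02 over all genes. Of all 16408 genes tested, 259 passed and 3210 had an unadjusted limma p under 0.05. In adult HSC against P1, 1 of 11 was at least 4-fold higher and 5 at least 4-fold lower, beside 4.6% and 12.6% of all genes. The higher one, named after its values were seen, was Disp2, of the Dispatched family of ligand releasers, at 4.15 in adult HSC against -4.69 at P1. Gpc3, a cell-surface glypican that binds Hedgehog in mouse, was among the lower ones, at -3.56 in adult HSC against 3.78 at P1. Scube2, a secreted protein that helps release the ligand, was at -4.62 in adult HSC against 1.74 at P1, and it was at -3.56 at E11.5. Hhatl and Scube2 were the 2 of 12 at least 4-fold higher at P1 than at E11.5, beside 7.37% of all genes. The largest difference between liver-derived and other arrays among the genes named was 5.79 ± 3.03 (SE) for Gpc3 (limma adjusted p = 0.331). Gpc3 was at 3.78 to 4.14 over the stages, at 2.39 in MEF and, below background, at -8.47 in MSC. Lrp2, Scube1, Scube3 and Ptchd1 lay between -2.13 and 1.96. Hhat, the acyltransferase that palmitoylates the ligands, ranged between 1.02 and 1.48 over the stages, with 0.60 in adult HSC, and 0.79 in MEF and 0.24 in MSC.

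The co-receptors that help Ptch1 bind the ligands were lower in adult HSC than at P1, with 1 array each and no test. Boc was at -3.44 in adult HSC against 1.59 at P1, and the related Cdon at 0.48 against 1.72. Gas1 was at 0.11 in adult HSC against 1.89 at P1. Only the Boc difference, of -5.03 log2 units, was past 4-fold among these genes, and the portal fibroblast markers given above were also lower in adult HSC. Between liver-derived and other arrays the log2 difference was 0.02 for Boc (limma adjusted p = 0.995), 0.50 for Cdon (limma adjusted p = 0.831) and -0.73 for Gas1 (limma adjusted p = 0.421).

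Of 34 genes of the relay from Smo to the Gli factors, 31 were tested by limma. Of these 0 passed with either the 6 or the 5 arrays, where 2 and 3 had an unadjusted p under 0.05. Of all genes, 259 of 16408 and 524 of 16290 passed, and 3210 and 3756 had an unadjusted limma p under 0.05. The median difference of the relay genes was 0.13 for the 6 liver-derived arrays, against 0.02 over all genes. For the adult HSC and P1 pair 0 of 34 were at least 4-fold apart (median 0.18), and likewise 0 of 34 for P1 and E11.5 (median -0.16). Of all genes, 4.6% were at least 4-fold higher and 12.6% lower in adult HSC than at P1. At P1 against E11.5 these shares were 7.37% and 3.31%. Sufu, which holds Gli proteins in the cytoplasm, was at -4.51 in adult HSC against -4.33 at P1. Btrc, which marks Gli proteins for processing, had the lowest adjusted p of those named, with a difference of 1.16 (limma adjusted p = 0.0829). Its levels were -0.61 at E11.5, -0.85 at E13.5, -1.25 at E14.5, -0.93 at E17.5, -0.79 at P1 and -0.60 in adult HSC, and -1.91 in MEF and -2.08 in MSC. Rab23, a brake on the pathway in mouse embryos, had a difference of -0.80, and Efcab7, Arl13b and Gsk3b lay between -1.03 and 0.84.

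Among 24 target genes tested, known from mouse tissues, 2 were higher in the 6 liver-derived arrays and 0 lower. Of all genes tested, 0.847% were higher and 0.731% lower. Foxf1, a forkhead factor of gut and lung mesenchyme, differed by 4.94 log2 units (limma adjusted p = 0.0481) and Bcl2, an inhibitor of apoptosis, by 2.28 (limma adjusted p = 0.0235). With the 5 p75NTR arrays 3 of 24 were higher, Foxl1 in addition (limma adjusted p = 0.0264), beside 1.99% of all genes. Foxf1 was at -0.63, -1.17, -0.52, -0.47 and -1.29 over the 5 stages in order and at 0.56 in adult HSC, and at -7.41 in MEF, below background, and -3.65 in MSC. Other targets with large differences that missed the threshold were Tbx2 (4.97), Cntfr (4.57), Sfrp1 (3.58), Grem1 (-5.14) and Spp1 (-5.44). Foxl1 was at -6.59 in adult HSC, against -2.30 at P1. In the same pair 11 of 23 targets were at least 4-fold lower in adult HSC and 1 at least 4-fold higher. Of all genes, 12.6% were so far lower and 4.6% so far higher. The median was -1.76 for the targets and -0.06 for all genes. The higher target was Mycn, a regulator of cell growth, at 0.41 in adult HSC against -1.93 at P1. The lower targets included Sfrp1, a secreted Wnt inhibitor, at -7.96 against 3.15 at P1, and Osr2, at -8.10 against -0.59. Between P1 and E11.5, 5 of 23 targets were at least 4-fold higher and 1 at least 4-fold lower at P1. Of all genes, 7.37% were so far higher and 3.31% so far lower. Spp1, also a bile duct marker, was at 0.11 at P1 against -7.67 at E11.5.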

How the data were processed

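One-colour (Cy3) mouse arrays were read with Agilent Feature Extraction 11.5.1.1, per the file headers. The intensity values are the deposited processed signals, background-subtracted and spatially detrended, per the file headers, with no scaling between arrays. The log2 values in the authors' series table were scaled to the 75th percentile, per the labels' design text, and the values computed here minus the authors' had array medians of -0.103 to -0.15, with 93.2% to 100% of probes within 0.02 after that offset; they served as an alternative.

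Here each array's log2 75th percentile was subtracted, outlier-flagged spots were left out, and the remaining spots were averaged per probe. Probes were named by transcript accession in a RefSeq gene table (GRCm38.p6), which named 67.4% of 39429 probes. For genes with several probes the one with the highest mean was taken. The bound for a level below background was the lowest well-above-background level of that array. Genes with an outlier spot on an array compared, 113 in the liver fit, were left out of it.

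Models were fitted with limma 3.58.1 (R 4.3.3), and p-values were adjusted by Benjamini-Hochberg over all genes. The pairs of single arrays have no test. On simulated liver differences of 4 and 8 log2 units, over 16408 genes, 73% and 89.5% were recovered, and of slopes of 1 and 2 per stage, over 15492 genes, 60.5% and 88%. The simulated noise was independent between arrays, while the real spread is that among stages and cell types. In the main fits the Hedgehog genes had smaller effects, at most 3.53 for the difference (Hhip) and 0.64 for the slope (Dhh). The rates therefore do not give the recovery of effects of their size. The genes and lists were chosen with earlier results of these data known. From each pathway list the rule named genes that passed, and those with the largest difference or slope; the 3 genes most like a member were named by Pearson correlation. A few genes covered by this rule are not reported here. Other list genes named (Disp2, Hhat, Sufu, Foxl1) were chosen after their values were seen. The normexp alternative (offset 50) used median spot brightness. Alternatives were another background correction, normalization, filter, probe rule and variance prior, slide as a block or alone, and each array left out.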

Additional observations from a re-analysis of the deposited data

How the results depend on the processing

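The count of genes that differed between liver-derived and other arrays (259) was 51 with normexp, 160 with genes above background on every array, 74 with slide as a block, 524 with only the 5 p75NTR arrays and 0 within slide 2 alone, where 1490 had an unadjusted limma p under 0.05. Leaving out 1 array gave 82 (without E17.5) to 1265 (without MEF). The count of slopes (0) was 99 with quantile normalization, 657 with genes above background on every array, 1140 with a mean-variance trend and robust prior and 33 with days in place of stage order. The count at least 4-fold apart between P1 and E11.5 (1595) was 594 with normexp, and that between adult HSC and P1 (2565) was 1044 with normexp and 1496 with genes above background on every array. The cause of these shifts was not tested, beyond the smaller number of genes or arrays that some alternatives use.

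Of 364 alternative values for single Hedgehog genes, 319 kept their sign and stayed within 1 log2 unit, 26 changed sign and 20 moved by over 1 log2 unit, with 1 value doing both. No sign change touched a value that passed a test or was at least 4-fold apart. The difference between liver-derived and other arrays turned for Gli2 (0.28 with normexp, 0.22 with the 5 p75NTR arrays, -1.02 to 0.22 over arrays left out) and for Gli3 (-0.24 with normexp, -0.33 with median normalization, -0.27 with slide as a block and -0.27 within slide 2 alone, -0.34 to 0.42 over arrays left out). With normexp the slope turned for Dhh (-0.08), Smo (0.18), Gli2 (-0.13) and Gli3 (0.01). The Smo slope was also 0.0 with quantile normalization and 0.07 with the mean of all probes, and the Gli2 slope -0.02 with median normalization. On the 4 fetal arrays alone the slope was 0.07 for Ihh, 0.0 for Ptch1 and -0.04 for Gli2, and over arrays left out it ranged between -0.87 and 0.07 for Ihh, -0.06 and 0.0 for Ptch1 and -0.04 and 0.05 for Gli2. In the pairs, median normalization turned Ptch1 and Gli3 between adult HSC and P1 and gave -0.17 in place of 0.01 for Smo between P1 and E11.5. It moved the median of all genes in the liver comparison to -0.35, and normexp to 0.35, in place of 0.02. The Ptch1 call was lost in 3 alternatives (normexp, slide as a block, slide 2 alone). The slide fits share their estimate of 2.55, and within slide 2 alone 0 genes of any kind passed. The Gli1 call was gained in 2 alternatives, both without adult HSC and on the same arrays, so they are not separate evidence. The cause of these changes was not tested. Ptch1 had adjusted p from 0.00608 to 0.542 over its alternatives. The bounds already hold low levels at the floor, so no separate floor alternative applies to the pairs. No paired analysis was possible because each group has 1 array. Signals near background, such as Shh everywhere and Gli2 in adult HSC, limit what can be said of low levels.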
